A study of Mus musculus with 7 samples.

Results

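The 34 genes described here make ribosomes or regulate that work: 33 genes for nucleolar processing of ribosomal RNA and for RNA polymerase I, together with Myc. They were chosen by symbol from the 35976 rows of a gene count table, and all 34 were found and passed the filter on low counts. RNA was measured in lineage-negative (Lineage-) cells of fetal liver from C57BL/6 mouse embryos at stage E14.5, the stem and progenitor fraction left after magnetic removal of cells with markers of mature lineages. The 3 control libraries had the genotype CD45.2(+) Brd9fl/fl, and the 4 knockout libraries CD45.2(+) Vav1-iCre Brd9fl/fl. Both groups thus carried the loxP-flanked alleles of Brd9, which encodes a bromodomain subunit of a chromatin remodeller (non-canonical BAF), and the recombinase, driven by a promoter active in blood cells, was in every knockout library and in no control. Effects of the recombinase and of Brd9 loss cannot be told apart. The labels do not say whether a library was 1 embryo or a pool, and the p-values therefore cover only library-to-library spread, part of which may be technical.

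Ribosomes are assembled in the nucleolus. RNA polymerase I transcribes the ribosomal RNA precursor, box C/D and box H/ACA ribonucleoproteins (snoRNPs) modify it, and separate sets of processing factors trim it into the small and the large subunit. MYC is a transcription factor known to drive many of these genes, and the pathway is known to be highly active in dividing blood progenitors.

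Total counts per library were between 18748885 and 23571878. Levels are given as CPM (counts per 1000000 reads, with library totals scaled by edgeR's TMM method). Brd9 had 30.6, 32.2 and 36.5 CPM in the controls and 8.57, 11.9, 13.2 and 12.2 CPM in knockout replicates 1 to 4 (edgeR log2 fold change -1.53, SE 0.15, adjusted p = 0.0037), with no overlap. Of 14 stem and progenitor genes, all of which passed the filter, Kit and Cd34 had at least 2928 and 1018 reads in each library. Procr had 7 to 27 reads and Mecom 34 to 94. At least 95802 reads of the hepatocyte gene Alb and 13925 of the neutrophil gene Mpo were also in each library. Of 8 genes of mature lymphoid cells, 6 were too low to pass the filter. The T cell genes Cd3g and Cd4 passed it and reached 385 and 35 reads in a library, and among those that did not pass Cd3e reached 73 and Cd79a, a B cell gene, 9. Knockout replicate 3 stood apart in a pair of ways. It held the 385 reads of Cd3g, with a summed 19.0 CPM for Cd3g and Cd4 against 0.5 to 1.9 CPM in the other libraries, and its levels varied with gene length.

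The comparison asks whether genes of ribosome production differ between the knockout and control libraries of this fetal liver fraction. None of the 34 genes passed edgeR's quasi-likelihood test at a Benjamini-Hochberg adjusted p under 0.05 over all genes, a threshold that 0.559% of the 14679 genes tested passed (0.0136% as higher). At an unadjusted p under 0.05 there were 2 members, Bysl and Rrp9, both higher in the knockouts (at that level 3.94% of all genes were higher, 6.9% lower and 10.8% passed in either direction). DESeq2 called 0 of 34 (background 2.68%) and limma-voom 0 of 34 (background 0.504%). In the knockouts 32 of the 34 genes had a log2 fold change above 0, as did 52.3% of all genes, and the exceptions were Myc and Utp20. That count was 33 with DESeq2 size factors, where Utp20 turned above 0, and 31 with scaling by total counts, where Utp15 turned below 0. The differences were small, with a median log2 fold change of 0.087 over the 34 members and of 0.011 over all genes tested. They ran from -0.14 for Myc to 0.32 for Bysl.

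The intervals give the sizes that these libraries allow. The 95% interval of the fold change held no change for 32 of the 34 genes, and for 0 of them did it reach 1.5-fold in either direction. Its upper bound was highest for Bysl, at 1.48-fold. Its lower bound was lowest for Myc, at 0.823-fold, and among the other 33 genes for Utp20, at 0.826-fold. These intervals are not adjusted for the number of genes. In these bulk samples fewer cells of a type and less RNA per cell cannot be told apart.

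**Figure D1:**
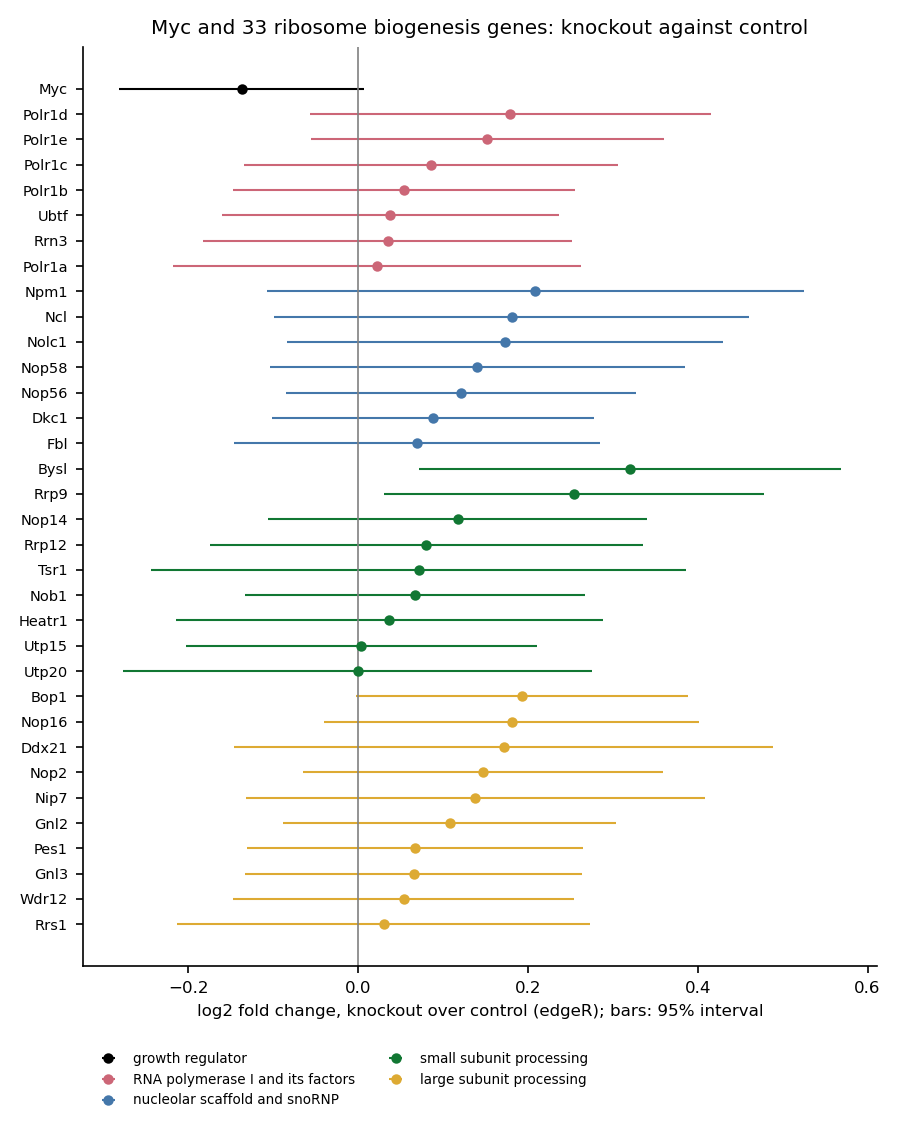
Log2 fold change of knockout over control for Myc and the 33 ribosome biogenesis genes (horizontal axis), grouped and coloured by role, with points for the edgeR estimate and bars for the 95% interval. The intervals of Bysl and Rrp9 lie above 0 and the other 32 hold 0; Utp20 lies at -0.001 and turns above 0 with DESeq2 size factors, and Utp15 at 0.004 and turns below 0 with total counts.

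Myc, which lies at 61985391 to 61990374 of chromosome 15 (plus strand, GRCm38), was the member whose knockout libraries all lay below the controls. It had 186, 185 and 175 CPM in control replicates 1 to 3 and 165, 165, 163 and 169 CPM in knockout replicates 1 to 4. The highest knockout thus lay just under the lowest control. Groups that do not overlap, with the knockouts lower, were found for 6.81% of all genes. The means were 182 ± 6 CPM (SD, n = 3) and 166 ± 3 CPM (SD, n = 4), a log2 fold change of -0.14 (SE 0.06; edgeR adjusted p = 0.495). The estimate stayed below 0 in the fits without each single library, from -0.17 to -0.12, and in no fit did it pass the threshold.

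MYC binds DNA as a pair with MAX, and the MXD proteins and MXI1 compete for MAX. Of 12 genes of this network other than Myc, 5 were higher and 7 lower in the knockouts. None passed in edgeR, DESeq2 or limma-voom (background 0.559%, 2.68% and 0.504%). At an unadjusted p under 0.05, 1 was higher and 2 lower (3.94% and 6.9% of all genes). The log2 fold changes of the 12 ran from -0.66 to 0.68. Mxi1 had 55.6, 53.2 and 58.2 CPM across the controls against 42.0, 45.2, 50.6 and 41.7 CPM across the knockouts, with no overlap (log2 fold change -0.31, SE 0.09; edgeR adjusted p = 0.232). Mxd3 had 5.76, 5.22 and 6.34 CPM across the controls against 6.39, 9.66, 10.8 and 8.68 CPM across the knockouts, where replicate 1 lay just above the highest control (0.63, SE 0.20; edgeR adjusted p = 0.276).

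The MYC and MAX pair is known to bind the palindrome CACGTG, called an E-box. RefSeq promoters on GRCm38.p6, each from 250 bases before to 50 after an annotated start, were at hand for 27 of the 34 members. The letters CACGTG were in at least 1 promoter of 5 of these 27 genes, in 16 of 89 genes of a wider pathway list, and in 11.3% of the 10876 tested genes in that table (7.15% of all 32851 promoters of that length). All 6 sites are printed, because they are the places in these windows where the letters that MYC is known to bind occur in member genes. Capitals mark CACGTG within 30 bases, read 5′ to 3′ on the gene's strand, and positions count from the first transcribed base.
Rrn3, 215 bases before the start, chr16:13780472-13780501: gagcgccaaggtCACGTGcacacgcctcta
Rrn3, 48 bases before the start, chr16:13780639-13780668: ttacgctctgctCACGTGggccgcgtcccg
Nop2, 60 bases before the start, chr6:125131811-125131840: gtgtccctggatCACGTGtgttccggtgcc
Pes1, from transcribed base 3, chr11:3963965-3963994: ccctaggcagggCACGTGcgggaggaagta
Tsr1, from transcribed base 25, chr11:74898092-74898121: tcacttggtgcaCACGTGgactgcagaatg
Utp20, from transcribed base 38, chr10:88826765-88826794: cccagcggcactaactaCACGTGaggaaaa
These 5 genes had log2 fold changes of 0.03 for Rrn3, 0.15 for Nop2, 0.07 for Pes1, 0.07 for Tsr1 and -0.001 for Utp20, none past the threshold. A match is a description of the letters and not a measured binding site.

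RNA polymerase I and its factors had the lowest median of the 4 roles with several members. All 7 had a log2 fold change above 0, with a median of 0.05, and 0 passed the test, also at an unadjusted p under 0.05 or with DESeq2 or limma-voom. The catalytic core is formed by POLR1A, the largest subunit, and POLR1B. Polr1a had 186 ± 11 CPM across the controls against 188 ± 24 CPM across the knockouts (log2 fold change 0.02), and Polr1b had 131 ± 14 and 136 ± 9 CPM (0.05). Ubtf, the upstream binding factor that keeps ribosomal DNA open, had 385 ± 22 and 395 ± 31 CPM (0.04), and Rrn3, which brings the polymerase to its promoter, had 88.6 ± 6.2 and 90.7 ± 9.8 CPM (0.03; SD, n = 3 and 4 throughout).

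The smallest p-values of this group belonged to Polr1d and Polr1e. Polr1d encodes a small subunit shared with RNA polymerase III. It had 136, 104 and 109 CPM across the controls against 137, 134, 138 and 118 CPM across the knockouts, so control replicate 1 lay with the knockouts and knockout replicate 4 between the controls (log2 fold change 0.18, SE 0.11; edgeR adjusted p = 0.600). Polr1e, an initiation subunit particular to the enzyme, had 35.2, 32 and 32.1 CPM across the controls against 40.4, 35.5, 36.9 and 34.3 CPM across the knockouts. Only knockout replicate 4 lay below the highest control (0.15, SE 0.09; edgeR adjusted p = 0.613). Polr1c, the other subunit shared with RNA polymerase III, had 73.6 ± 3.5 and 78.1 ± 9.1 CPM (0.09).

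Nucleolar scaffold and snoRNP genes held the most abundant members. All 7 were above 0 with a median log2 fold change of 0.14, and 0 passed the test by edgeR, DESeq2 or limma-voom or at an unadjusted p under 0.05. Npm1, the histone chaperone nucleophosmin of the outer nucleolus, had 2643, 2113 and 2157 CPM across the controls against 3042, 2421, 2982 and 2207 CPM across the knockouts. Knockout replicates 1 and 3 stood above every control, and replicates 2 and 4 lay within the controls (log2 fold change 0.21, SE 0.14; edgeR adjusted p = 0.646). Nolc1, a chaperone of snoRNPs, had 476, 401 and 425 CPM against 579, 457, 484 and 436 CPM, with the same pair of knockouts above the controls (0.17, SE 0.11; edgeR adjusted p = 0.638).

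Ncl, which encodes nucleolin, had 2508 ± 255 CPM across the controls against 2843 ± 379 CPM across the knockouts (0.18). The core proteins of box C/D snoRNPs followed at lower levels. Nop56 had 495 ± 24 and 538 ± 47 CPM (0.12), Nop58 had 392 ± 29 and 432 ± 53 CPM (0.14), and Fbl, the methyltransferase fibrillarin, had 279 ± 19 and 292 ± 28 CPM (0.07). Dkc1, the pseudouridine synthase dyskerin of box H/ACA snoRNPs, had 250.3 ± 16.8 and 266 ± 17 CPM (0.09).

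Among the 9 small subunit genes 8 lay above 0, with a median of 0.07 for the log2 fold change. None passed by edgeR, DESeq2 or limma-voom, and both members with an unadjusted p under 0.05 belong here. Bysl encodes bystin, needed late in maturation of the small subunit. It had 82.0, 75.1 and 77.5 CPM across the controls against 118, 90.5, 97.4 and 85 CPM across the knockouts. The groups did not overlap, and knockout replicate 4 lay just above control replicate 1 (log2 fold change 0.32, SE 0.11; edgeR adjusted p = 0.327, and 0.241 to 0.644 in the fits without 1 library). Rrp9, a protein of the U3 snoRNP that starts small subunit cleavage, had 69.8, 68.0 and 66.1 CPM against 93.8, 75.0, 84.1 and 71.4 CPM. Again no knockout reached down to a control, and replicate 4 was the nearest (0.25, SE 0.10; edgeR adjusted p = 0.399, and 0.281 to 0.724). Groups that do not overlap with the knockouts higher were found for 2 of 34 members and 4.38% of all genes.

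Both genes share exon positions with a gene on the other strand, and the strand setting of the counting is not given in the sources used here. Bysl (minus strand of chromosome 17, 47599331 to 47611492) overlaps Ccnd3, the cyclin D3 gene, which had 187, 179 and 189 CPM across the controls against 222, 218, 235 and 203 CPM across the knockouts, also without overlap (0.25, SE 0.08; edgeR adjusted p = 0.253). Whether reads of Ccnd3 entered the count of Bysl was not tested. Rrp9 (plus strand of chromosome 9, 106475963 to 106485424) overlaps Parp3, which had 4.47 ± 1.38 and 4.65 ± 0.52 CPM, far below Rrp9. In all, 13 of the 34 members share exon positions with a gene on the opposite strand, and 9 of those 13 partners were tested and 0 called.

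A stretch before the RefSeq start of Rrp9 is printed because it holds a run of letters found in many promoters of the pathway. That start lies inside the longer GENCODE interval of the gene given above, and 40 of the 250 bases before it are in annotated exons. CGGAAG, the core of sites of ETS family factors, was found on either strand in promoters of 12 of 27 members, of 66 of 89 genes of the wider list, of 33.1% of tested genes in the table and in 16.9% of all promoters of that length. In the 210 bases that end 41 bases before the RefSeq start (chr9:106477059-106477268, plus strand, GRCm38.p6), capitals mark the match in this orientation.
Rrp9: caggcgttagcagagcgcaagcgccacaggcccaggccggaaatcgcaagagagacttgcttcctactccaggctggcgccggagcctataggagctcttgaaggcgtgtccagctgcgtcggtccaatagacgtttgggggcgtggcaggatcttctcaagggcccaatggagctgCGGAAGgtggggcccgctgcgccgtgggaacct
Of the other motifs counted on both strands, CACGCG was in promoters of 10 of the 27 members (18.8% of tested genes), TATAAA in 2 (9.17%), GGAAGT in 11 (31.7%), CCAAT in 8 (42.8%), CCGCCAT in 4 (8.88%) and GATAAG in 0 (6.96%). GGAAGT shares 5 letters with CGGAAG, so those counts are not independent.

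The remaining small subunit genes showed less difference. Nob1, the nuclease that makes the last cut of small subunit RNA, had 79.1, 68.1 and 74.9 CPM across the controls against 83.7, 73.4, 82.3 and 71.0 CPM across the knockouts, with replicates 1 and 3 above the controls and replicates 2 and 4 within them (log2 fold change 0.07). Nop14 had 95.3 ± 6.5 and 103 ± 12 CPM (0.12) and Rrp12 had 107 ± 6 and 113 ± 17 CPM (0.08). The processome proteins Heatr1, Utp15 and Utp20 were at 174 ± 6 and 179 ± 27 CPM (0.04), 82.0 ± 5.5 and 82.3 ± 8.1 CPM (0.004) and 145 ± 5 and 145 ± 24 CPM (-0.001). Tsr1, a late assembly factor, had 64.7 ± 5.2 and 68.0 ± 12.7 CPM (0.07). In Utp20, Heatr1 and Tsr1 the knockouts were spread far more widely than the controls, and replicate 1 and replicate 3 formed the ends of that spread.

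Large subunit genes were all 10 above 0, with a median log2 fold change of 0.12, and 0 passed the test by edgeR, DESeq2 or limma-voom or at an unadjusted p under 0.05. BOP1, PES1 and WDR12 form the PeBoW complex. Bop1 had 135, 127 and 120 CPM across the controls against 161, 135, 152 and 135 CPM across the knockouts. Control replicate 1 lay between the knockouts and the other controls below all of them (log2 fold change 0.19, SE 0.09; edgeR adjusted p = 0.469). Its partners differed less, with 212 ± 13 and 222 ± 18 CPM for Pes1 (0.07) and 107 ± 8 and 111 ± 10 CPM for Wdr12 (0.05).

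Nop16, a nucleolar protein of large subunit assembly, had 102, 84.2 and 91.8 CPM against 118, 98.0, 108 and 95.6 CPM, so knockout replicates 2 and 4 lay within the controls (0.18, SE 0.10; edgeR adjusted p = 0.572). Ddx21, a nucleolar RNA helicase, had 590, 487 and 502 CPM against 745, 577, 494 and 554 CPM. There knockout replicate 1 stood alone above the controls (0.17, SE 0.14; edgeR adjusted p = 0.707). The RNA methyltransferase gene Nop2 had 174 ± 14 and 192 ± 18 CPM (0.15). Nip7 had 64.7 ± 2.0 and 71.2 ± 11.9 CPM (0.14), and the GTPase genes Gnl2 and Gnl3 had 118 ± 9 and 127 ± 10 CPM (0.11) and 253 ± 22 and 264 ± 16 CPM (0.07). Rrs1, which brings the 5S particle into the large subunit, had 114 ± 12 and 117 ± 14 CPM (0.03).

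**Figure D2:**
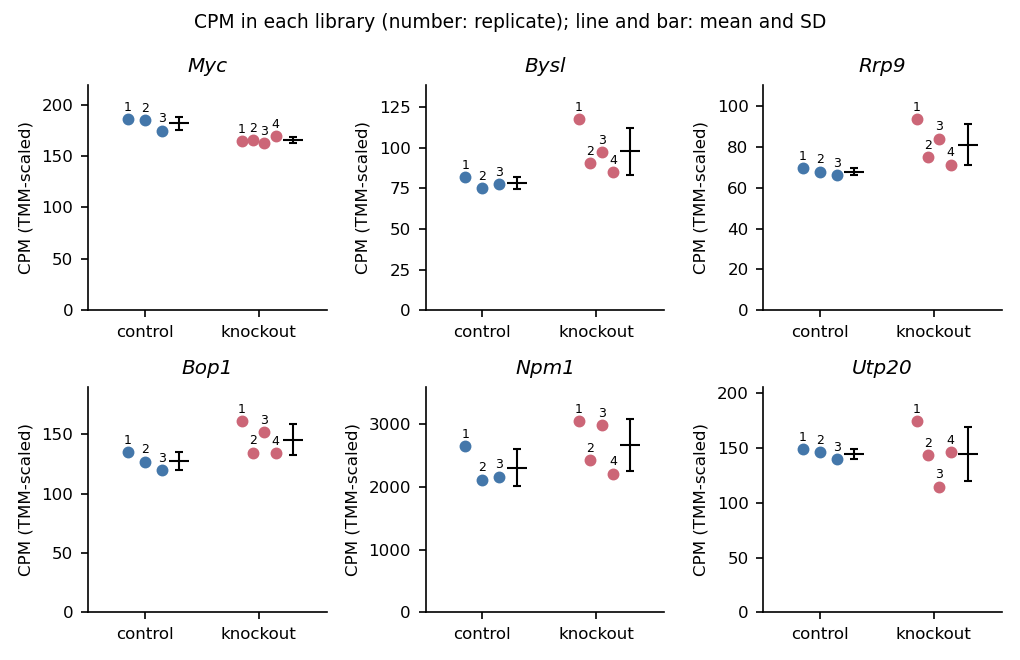
CPM (vertical axes, from 0) of 6 genes in each control (blue) and knockout (red) library, numbered by replicate, with the mean and SD beside the points; Utp20 was added after its values were seen. Myc lies lower in all 4 knockouts, Bysl and Rrp9 higher in all 4, and in Bop1, Npm1 and Utp20 the groups overlap.

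Levels between genes were compared per kb of the longest coding sequence in the GENCODE M21 annotation. Reads of untranslated exon parts can enter the counts but not that length. The ranks are therefore rough, above all for short coding sequences such as that of Polr1d (399 bases). Npm1 had 2630.5 ± 335.3 CPM per kb in the controls and Ncl 1182 ± 120 CPM per kb, and the 34 genes reached down to Utp20 with 17.3 ± 0.6 CPM per kb (SD, n = 3). Polr1d, Nop56 and Fbl followed Ncl at 292 ± 43, 284.2 ± 13.8 and 284.0 ± 19.1 CPM per kb and did not differ from each other beyond their spread. Myc came thirteenth, at 134 ± 5 CPM per kb in the controls and 122 ± 2 CPM per kb in the knockouts. Among polymerase I genes Ubtf had 168 ± 10 CPM per kb, Polr1a 36.0 ± 2.1 and Polr1b 38.4 ± 4.2, and the last pair lay within their spread of each other.

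**Figure D3:**
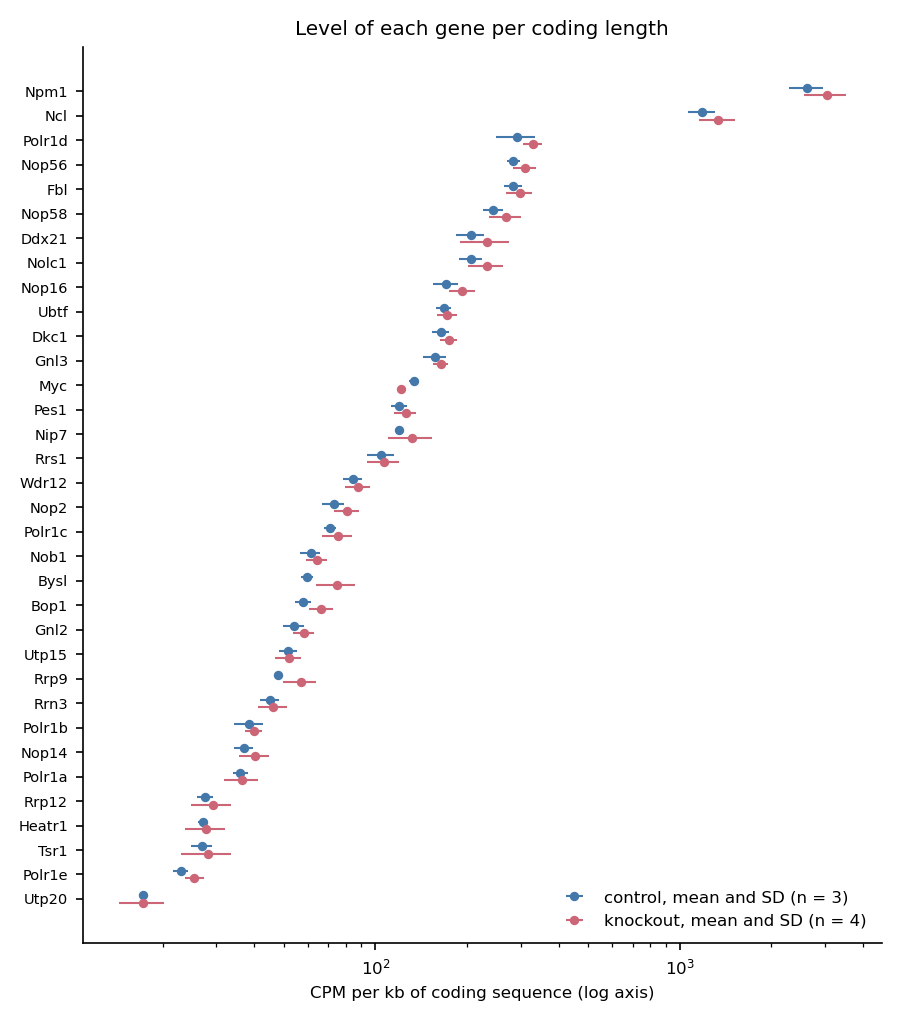
CPM per kb of coding sequence (horizontal log axis) for the 34 genes in order of the control mean, with points for group means and bars for the SD of 3 controls (blue) and 4 knockouts (red). Npm1 and Ncl stand apart at the top, Utp20 is lowest, and for most genes the group bars overlap.

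Most of the 33 genes other than Myc were highest in 1 library and many were lowest in another, while knockout replicate 3 held both the highest level of 5 and the lowest of 6. The summed level of the 33 genes was 11385.0, 9667.5 and 10000.6 CPM in control replicates 1 to 3. It was 13164.5, 10878.7, 11647.2 and 10210.4 CPM in knockout replicates 1 to 4. Knockout replicate 1 held the highest level of 28 of the 33 genes, and control replicate 2 the lowest of 20. Measured against each gene's control mean in log2 CPM, the median of the 33 was 0.098, -0.099 and -0.013 across the controls against 0.27, 0.058, 0.15 and -0.010 across the knockouts, while the median over all genes lay between -0.012 and 0.009 in every library. Of the 33 genes, 32 lay above every control in knockout replicate 1, with Gnl2 within the controls. By contrast 27 lay within the control range in knockout replicate 2 and 27 in replicate 4, which sat at the control level.

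The count of genes above 0 rested in part on single libraries. Without knockout replicate 1, 23 of the 34 members were above 0 (51.5% of all genes) with a median log2 fold change of 0.037, and without control replicate 2 there were 26 (53.6%) with a median of 0.047. In the fits without 1 of the other 5 libraries there were 31 to 33, with medians of 0.098 to 0.14. The fits without a library called 0 of the 34 genes.

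**Figure D4:**
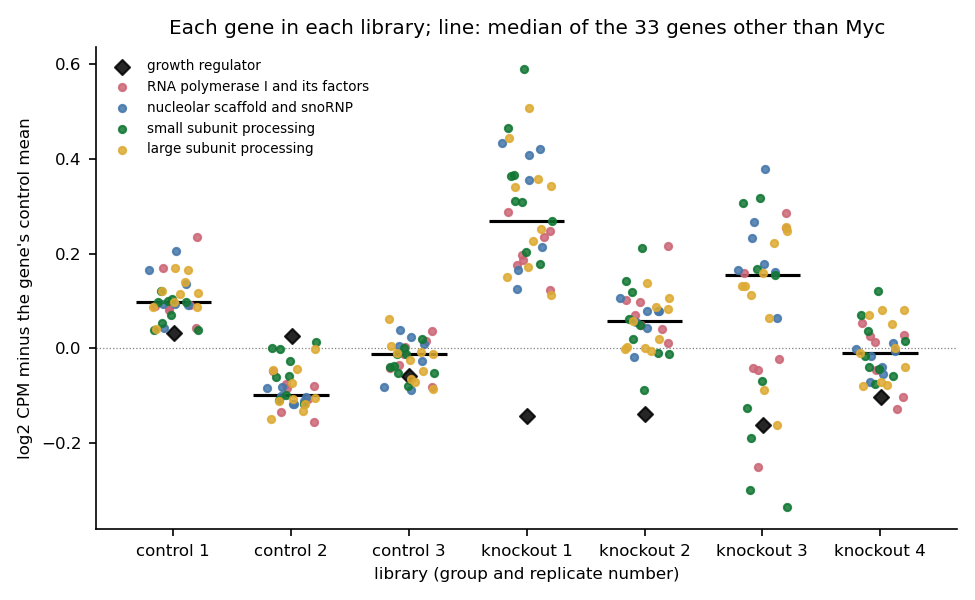
Log2 CPM of each of the 34 genes minus its control mean (vertical axis) in each library, coloured by role, with Myc as a diamond and a line at the median of the other 33. The line is highest in knockout replicate 1 (0.27) and lowest in control replicate 2 (-0.099), and Myc lies below 0 in all 4 knockouts.

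Marker genes of cell types also differed between these libraries. The summed level of 16 neutrophil genes was 4997, 8903 and 7160 CPM across the controls against 1669, 2225, 3830 and 2108 CPM across the knockouts. Of the 16, 15 were lower and 7 fell by edgeR (0.559% of all genes were called, 80 of the 82 as lower). The sum was highest in control replicate 2 and lowest in knockout replicate 1. For 13 tested macrophage genes the sum was 344 to 498 CPM across the controls against 175 to 276 CPM across the knockouts, with 12 of the 13 lower, 0 called by edgeR or limma-voom, 8 lower at an unadjusted p under 0.05 and 7 called by DESeq2 (background 2.68%). For 19 hepatocyte genes it was 11677 to 20329 CPM across the controls against 24612, 16079, 14658 and 26280.0 CPM across the knockouts. All 19 were higher, with 0 called by edgeR, DESeq2 or limma-voom and 0 at an unadjusted p under 0.05. The sum of 18 erythroid genes was 3803 CPM in control replicate 2 and 5520 to 6849 CPM in the other 6 libraries. Of these 18 genes 14 were higher, with 0 called by edgeR or limma-voom and 5 called by DESeq2 (background 2.68%). At an unadjusted p under 0.05, 6 of them were higher and 2 lower (3.94% and 6.9% of all genes). For 14 stem and progenitor genes the sum was 967, 1358 and 990.1 CPM across the controls against 773, 1071, 955 and 1061 CPM across the knockouts, so it too was highest in control replicate 2 and lowest in knockout replicate 1. Of these 14 genes 10 were lower, with 0 called by edgeR or limma-voom, 2 higher and 2 lower at an unadjusted p under 0.05, and 1 called by DESeq2. The part of these cell types in the differences was not tested.

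Knockout replicate 3 differed from the others in how genes of different length behaved. Over 12779 protein-coding genes the Spearman correlation between coding length and the deviation from the control mean was -0.38 in that library and between -0.12 and 0.12 in the other 6. The third of genes with the shortest coding sequence had a median deviation of 0.15 there and the third with the longest -0.17. Over the 33 members the correlation was -0.57 in knockout replicate 3 and between -0.12 and 0.23 in the other 6. These are descriptions across genes of 1 library, and genes are not independent replicates. In that library 19 members lay above every control, among them Npm1, Fbl and Nop16, and 6 below, namely Polr1a, Rrp12, Tsr1, Utp20, Heatr1 and Rrs1. Utp20, with a coding length of 8367 bases, had 115 CPM there against 139 to 148 CPM in the controls. Without this library 33 of the 34 members were above 0 and 0 were called.

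**Figure D5:**
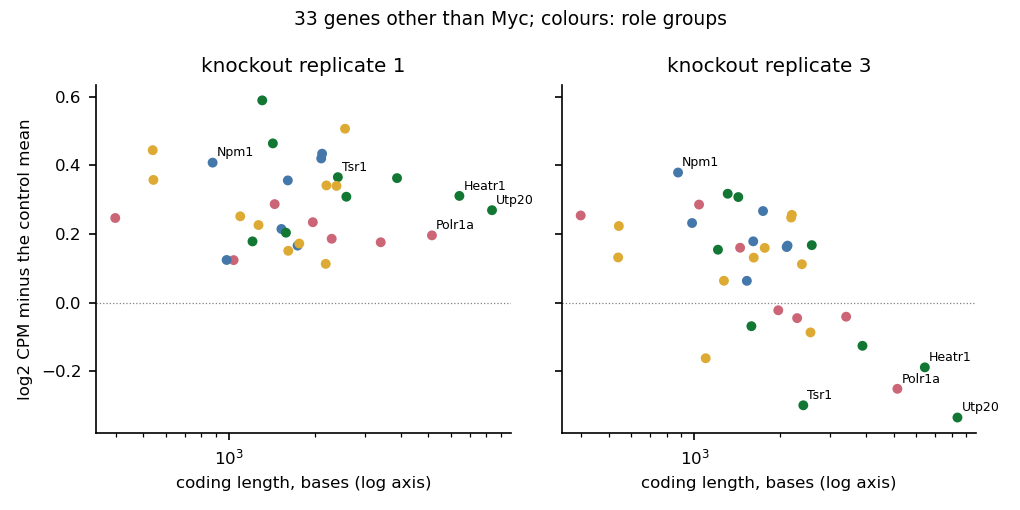
Log2 CPM minus the control mean (vertical axis) against coding length in bases (horizontal log axis) for the 33 genes other than Myc in knockout replicates 1 and 3, coloured red for polymerase I, blue for scaffold and snoRNP, green for small and yellow for large subunit genes. In replicate 1 the genes lie above 0 at every length, and in replicate 3 the longest, such as Utp20 and Polr1a, lie below 0.

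The rest of the pathway was described from a longer list. This wider list of 105 genes outside the 34, all tested, held 91 above 0 (86.7%, against 52.3% of all genes) and had a median log2 fold change of 0.10. Of these 105, 0 passed by edgeR, DESeq2 or limma-voom, and 6 were higher and 0 lower at an unadjusted p under 0.05, where 3.94% of all genes were higher and 6.9% lower, so the share higher lay near that of all genes. By role, 37 of 40 small subunit genes were above 0, 36 of 41 large subunit genes, 11 of 11 snoRNP genes and 7 of 13 genes of RNA polymerase I, its shared subunits and its factors. Against the control mean, the median of the wider list was 0.103, -0.088 and -0.021 across the controls against 0.239, 0.037, 0.147 and -0.009 across the knockouts, with the same libraries at both ends.

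Ltv1, a late small subunit factor, had 95.1, 86.4 and 93.6 CPM across the controls against 125, 109, 111 and 98.7 CPM across the knockouts, without overlap (0.27, SE 0.09; edgeR adjusted p = 0.284). Rrp7a of the same group had 78.5 ± 0.7 and 90.5 ± 7.8 CPM (0.21). Mrto4 had 130, 109 and 123 CPM against 172, 132, 161 and 131 CPM, where knockout replicate 4 lay just above the highest control (0.31, SE 0.11; edgeR adjusted p = 0.364). Wdr74 of the large subunit had 71.8 ± 5.7 and 84.8 ± 10.1 CPM (0.24). The snoRNP genes Nhp2 and Naf1 had 154 ± 15 and 183 ± 27 CPM (0.25) and 66.9 ± 9.2 and 76.7 ± 6.6 CPM (0.20). Polr2e and Polr2l, small subunits shared by the nuclear polymerases, had 94.8 ± 7.3 and 107 ± 8 CPM (0.18) and 53.6 ± 7.3 and 65.7 ± 12.6 CPM (0.29).

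The other nuclear RNA polymerases were described beside them. Of 8 subunits of RNA polymerase II, 6 were above 0 with a median log2 fold change of 0.11, and 0 passed by edgeR, DESeq2 or limma-voom or at an unadjusted p under 0.05; Polr2c had 63.8 ± 3.9 and 70.2 ± 4.1 CPM and Polr2m 199 ± 11 and 219 ± 17 CPM. Of 21 subunits and factors of RNA polymerase III, 11 were above 0 with a median of 0.002, and 0 passed by edgeR or limma-voom. At an unadjusted p under 0.05 there was 1 gene, higher in the knockouts, as were 3.94% of all genes. That gene was Gtf3c5, a subunit of the factor TFIIIC, with 52.9, 47.1 and 48.3 CPM across the controls against 61.5, 60.2, 64.7 and 59.2 CPM across the knockouts. All 4 knockouts lay above the controls within a narrow band (0.31, SE 0.08; edgeR adjusted p = 0.145), and DESeq2 called it at an adjusted p = 0.0334. Polr3b had 66.7 ± 1.0 and 60.3 ± 3.7 CPM (-0.14), with no overlap and no call. DESeq2 thus called 1 of the 21, against 2.68% of all genes. The groups did not overlap for 1 higher and 1 lower gene of the 21, and for 4.38% and 6.81% of all genes. The difference between the polymerases was not tested.

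Some members carry further genes of the same pathway within them. Annotated snoRNA genes lay inside 6 of the 34 members on the same strand, namely Ncl, Nop56, Nop58, Dkc1, Tsr1 and Gnl3, and inside 1.59% of the 12779 tested protein-coding genes. The host genes had log2 fold changes of 0.07 to 0.18 with a median of 0.105, against 0.086 for the other 27 genes without Myc. The snoRNAs themselves are not read here, since libraries of polyA RNA are not made to hold them.

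In the authors' deposited table of the same comparison 0 of the 34 members had an adjusted p under 0.05, among 382 genes that did. Its smallest adjusted p among the members was 0.300 for Bysl, and 33 of the 34 had a log2 fold change above 0 there, with Myc at -0.14. The shares over all genes of that table were not counted. In the DESeq2 fit run here 2.68% of all genes were called and 52.6% were above 0.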

How the data were processed

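RNA-seq of lineage-negative fetal liver cells at stage E14.5 was compared between 3 control and 4 knockout libraries. The authors deposited unnormalized counts, 1 row for each gene symbol. HISAT2, mm10, featureCounts and DESeq2 are named per the submitters' processing notes. Their versions, the annotation and the strand setting: not given in the sources used here. The authors' deposited comparison table holds log2 fold changes, p-values, a test score, and a signal, which is counts over 1 size factor per library (between 0.855 and 1.14).

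Genes were kept with filterByExpr, TMM factors applied, and group, the sole term, tested by quasi-likelihood F test in edgeR 4.0.16 (R 4.3.3), with Benjamini-Hochberg adjustment over 14679 genes. Standard errors and 95% intervals come from that F statistic. Log2 CPM used a prior count of 2. Libraries of 1 group differed by more than sampling noise (chi-square per degree of freedom 8.5 to 42.0), so each counted as 1 replicate.

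Members and lists were chosen with earlier results of these data known. All 34 members are named; values in every library are given for Myc, for the 2 members of each role with the smallest unadjusted p and for the most abundant per coding length. From other lists the 2 genes with the smallest p are named. Any further gene with library values was chosen after its values were seen. Of the 269 list entries, 8 were found under another symbol. Coordinates are 1-based, from GENCODE M21 (GRCm38, the assembly mm10 names), and promoters from RefSeq. Alternatives were other scalings and filters, DESeq2 1.42.0, limma-voom (limma 3.58.1), a replicate block, 1 surrogate variable (sva 3.50.0) and leaving out each library.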

Additional observations from a re-analysis of the deposited data

Results flagged for a closer look

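In the knockouts a single library stood apart for 2 of 49 genes examined (4.08%; chance flags about 1 in 20 groups). Polr1d had its lowest knockout level, 118 CPM, in replicate 4, against 134 to 138 CPM in the other knockouts. Utp15 had its highest, 94.4 CPM, in replicate 1, against 77.1 to 79.5 CPM in the others. Groups of 3 controls were not examined in this way.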

How the results depend on the processing

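Under the 15 alternatives 0 of the 34 members and 0 of the 105 genes of the wider list were called, and the smallest adjusted p of a member was 0.0932, for Bysl with the replicate block. The number of genes called over the whole table was 82, but 228 with no filter and 393 with DESeq2, and 20 to 120 without 1 library. Members at an unadjusted p under 0.05 numbered 2, but 4 with total counts and 11 with the replicate block, and 0 to 3 without 1 library. Over all 14679 genes tested the number at that level was 1592, but 1549 with total counts and 2430 with the block. Without 1 library it was 1165 to 1829. Number 4 exists only among the knockouts, so with the block knockout replicate 4 adds nothing to the estimate of the group difference. The median log2 fold change of the members was 0.130 with the block and 0.131 without knockout replicate 4, against 0.087 in the main fit. Same-numbered libraries had correlations of 0.17, -0.022 and -0.005 between their deviations from the group means. Of the 3 controls only replicate 1 correlated best with its own number. These 3 values are too few to settle whether the replicate numbers pair the libraries. Over the 33 genes other than Myc, 463 of 495 estimates kept their sign. With the surrogate variable Polr1a (-0.051), Tsr1 (-0.042), Utp15 (-0.036), Heatr1 (-0.036) and Rrs1 (-0.040) turned below 0. Utp15 did so with total counts (-0.011), no filter (-0.0015) and limma-voom (-0.0004), and Utp20 turned above 0 (0.001) with DESeq2 size factors and the DESeq2 test. The cause was not tested. Without 1 library, estimates changed sign and ran from -0.047 to 0.10 for Polr1a, -0.012 to 0.15 for Polr1b, -0.043 to 0.086 for Rrn3, -0.020 to 0.082 for Ubtf, -0.032 to 0.14 for Rrp12, -0.046 to 0.18 for Tsr1, -0.11 to 0.097 for Utp20, -0.074 to 0.061 for Utp15, -0.073 to 0.11 for Heatr1, -0.013 to 0.12 for Wdr12, -0.0064 to 0.11 for Gnl3 and -0.055 to 0.12 for Rrs1. Each member had at least 699 reads in every library. Leaving out 1 library could narrow an estimate: the SE of Tsr1 went from 0.14 to 0.11 and that of Utp20 from 0.12 to 0.091 without knockout replicate 3, and that of Bysl from 0.11 to 0.082 without knockout replicate 1.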
